A study of Mus musculus with 4 samples.

Results

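The genes described are the mouse cytosolic ribosomal protein genes, chosen by symbol: those named Rps or Rpl with a number and at most a closing a, l or x, together with Rps3a1, Rpsa, Rplp0, Rplp1 and Rplp2, leaving out names that mark a pseudogene. Of 84 symbols that matched, 83 had at least 10 counts over the barcodes with at least 1000 UMIs (unique molecular identifiers, each standing for 1 captured transcript) and 800 detected genes, while Rpl10l did not. They are 83 of the 28120 features that reach the same minimum. They comprise 33 genes of the small subunit, 47 of the large subunit and 3 of the P-stalk. Rpl32l and Rpl6l, counted with the large subunit, are annotated as processed pseudogenes of 1 exon, which their names do not show. The data are 4 droplet-based single-cell RNA sequencing libraries of bone stroma, taken from the metaphysis of long bones (femur and tibia) at 12 weeks of age, 2 labelled Lats2iECKO (conditional Lats2 KO) and 2 labelled control. The mutants carried Cdh5(PAC)-CreERT2, a Cre recombinase driven by an endothelial promoter and switched on by tamoxifen, together with floxed alleles of Lats2, a kinase of the Hippo pathway, so the deletion was aimed at endothelial cells alone. Controls were Cre-negative littermates that received the same tamoxifen, and both groups were depleted of lineage-positive, CD45-positive and CD117-positive hematopoietic cells. Animals of both sexes on a C57/BL6 background were used, and a Cdh5(PAC)-mT/nG reporter was also bred into mutants and controls, though not stated for these libraries. Cells were assigned to 6 types by lists of marker genes, none of which is a ribosomal protein gene: endothelial cells (EC), bone marrow stromal cells (BMSC), osteoblasts (OB), chondrocytes (CHO), smooth muscle cells and pericytes (SMC) and fibroblasts (FIB).

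A cytosolic ribosome joins a small subunit, which reads the mRNA, to a large subunit, which makes the peptide bond, and each subunit assembles from ribosomal RNA and ribosomal proteins in the nucleolus. The acidic proteins of the P-stalk reach out from the large subunit and call in the elongation factors. Ribosomal protein mRNAs are among the most abundant of a cell, and most begin with a C and a run of pyrimidines, the 5′ terminal oligopyrimidine (TOP) motif, through which mTORC1 and Larp1 set their translation. Matrix-secreting cells of bone, osteoblasts and chondrocytes, depend on a high capacity for protein synthesis. Loss of single ribosomal proteins disturbs the skeleton and the marrow, as in the tail-short mouse (Rpl38), the brittle bones of mice without Rpl29 and Diamond-Blackfan anemia (Rps10, Rps19, Rpl5, Rpl11 and others).

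The start regions of 9 genes that the results below return to are given first, because many members hold sequence features there that the choice by symbol did not use. Each window runs from 70 bases before to 30 bases after the RefSeq transcript start (GRCm38.p6, 5′ to 3′ on the strand of the gene), and capitals mark a C followed by at least 7 pyrimidines (C or T) on that strand.
Rplp0 (chr5:115559397-115559496, plus strand): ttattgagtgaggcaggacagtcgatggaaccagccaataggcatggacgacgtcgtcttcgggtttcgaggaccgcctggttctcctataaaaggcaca
Rps10 (chr17:27635215-27635314, minus strand): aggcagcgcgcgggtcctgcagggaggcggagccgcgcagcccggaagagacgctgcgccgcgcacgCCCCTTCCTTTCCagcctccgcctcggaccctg
Rpl12 (chr2:32961642-32961741, plus strand): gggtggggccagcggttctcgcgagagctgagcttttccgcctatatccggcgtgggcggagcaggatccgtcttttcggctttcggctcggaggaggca
Rpl13a (chr7:45128716-45128815, minus strand): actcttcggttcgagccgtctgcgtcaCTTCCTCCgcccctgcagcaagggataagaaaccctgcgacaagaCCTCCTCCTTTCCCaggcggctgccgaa
Rpl41 (chr10:128549139-128549238, minus strand): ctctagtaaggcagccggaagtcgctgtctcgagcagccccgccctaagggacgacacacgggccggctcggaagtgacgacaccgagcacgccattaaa
Rps28 (chr17:33824533-33824632, minus strand): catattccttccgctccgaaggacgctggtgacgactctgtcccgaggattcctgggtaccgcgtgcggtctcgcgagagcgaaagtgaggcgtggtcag
Rpl27 (chr11:101442175-101442274, plus strand): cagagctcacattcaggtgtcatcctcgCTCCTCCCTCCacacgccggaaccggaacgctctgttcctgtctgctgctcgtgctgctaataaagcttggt
Rps27l (chr9:66946016-66946115, plus strand, the first of 2 starts listed): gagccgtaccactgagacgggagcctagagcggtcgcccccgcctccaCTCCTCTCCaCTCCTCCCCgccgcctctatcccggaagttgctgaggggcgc
Rpl39l (chr16:10170158-10170257, plus strand): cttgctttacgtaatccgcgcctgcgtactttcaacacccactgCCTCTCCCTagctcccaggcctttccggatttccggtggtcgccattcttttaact

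Such a pyrimidine tract lay within the window in 42 of the 61 members found in the RefSeq promoter table (68.9%) and in 8842 of all 27025 genes of that table (32.7%). The motif CCGGAA, the core letters that ETS-family factors read, occurred on either strand between 250 bases before and 50 after the start in 34 of the 61 members (55.7%) and in 4503 of the 27025 genes (16.7%). On the opposite strand it reads TTCCGG, which can overlap a pyrimidine tract. Of the 9 genes shown, Rps10, Rpl41, Rpl27, Rps27l and Rpl39l hold it. These matches are a description of the sequence. A tract may lie anywhere in the window, before the start included, and the listed starts were not checked. A match or its absence therefore does not tell whether an mRNA begins with a TOP motif. Of the members, 22 were not matched in the table, among them Rpl17, Rpl21, Rpl23a, Rpl29, Rpl3, Rpl30, Rpl32, Rpl36, Rpl6l, Rpl7, Rpl8, Rplp1, Rps14, Rps20, Rps27a, Rps29 and Rps4l. In GRCm39 the 83 genes lie on 19 chromosomes, with 14 on chromosome 7 and 4 on the X chromosome (Rpl10, Rpl36a, Rpl39 and Rps4x). Their canonical transcripts run from 382 bases (Rps28) to 6111 bases, with a median of 1051.

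The libraries held between 69636600 and 85899079 UMIs, and 19438 of the 24648 barcodes past the filters were assigned to the 6 types, with the fewest in FIB (100 to 141 cells a library) and OB of the mutants (144 and 168). Any pair of libraries shared between 6 and 16 barcodes. The libraries of a genotype are biological replicates per the study's methods, and how many animals entered each is not stated in the sources used here. An exact permutation test of 2 against 2 cannot give less than 0.333. In EC, Lats2 stood at 92.2 and 97.3 CPM (counts per 1e6 UMIs of the cell type) in the mutants and 133 and 123 CPM in controls (log2 fold change −0.36, SE 0.0723, edgeR quasi-likelihood test with Benjamini-Hochberg adjustment, adjusted p = 9.2e-04), and the Cre-ERT2 transgene at 55.1 and 48.3 against 0.672 and 0.860 CPM. The FIB gate also held the superficial-zone gene Prg4 of the chondrocyte list at 6247 and 13928 CPM in mutants and 8601 and 10237 CPM in controls, so FIB cells carry that label by their fibroblast markers only.

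Ribosomal protein genes took a larger share of the transcripts in both mutant libraries than in both controls in 5 of the 6 cell types, and not in FIB. In EC they made up 10.2% and 10.4% of all UMIs in the mutants and 7.68% and 8.04% in the controls (10.3% ± 0.182 against 7.86% ± 0.256, SD, n = 2). In CHO, where the share was highest, they made up 15.8% and 15.7% against 12.1% and 12.1% (15.7% ± 0.0929 against 12.1% ± 0.0421). In BMSC the values were 7.54% and 6.84% against 5.39% and 5.65% (7.19% ± 0.492 against 5.52% ± 0.180). The shares in these 3 types were thus 1.31, 1.30 and 1.30 times those of controls, and within each type both mutant libraries stood apart from both controls. With a doubled gate margin the ratio was 1.32 in EC and 1.27 in CHO, and in BMSC it was lower, at 1.17. SMC had 7.60% and 7.62% against 6.36% and 6.40%, a ratio of 1.19. OB had 9.32% and 10.1% against 8.54% and 8.75%, a ratio of 1.12, and there the 2 mutant libraries differed more from each other than the 2 controls did. FIB had 7.71% and 7.84% against 8.04% and 7.77%, so that the groups overlapped, whereas with a doubled gate margin the mutants lay below both controls (7.95% and 8.15% against 8.46% and 8.66%). These are shares of the UMIs of a cell type, so an absolute amount of mRNA per cell was not measured. No p-value is given for a sum over these genes.

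**Figure D1:**
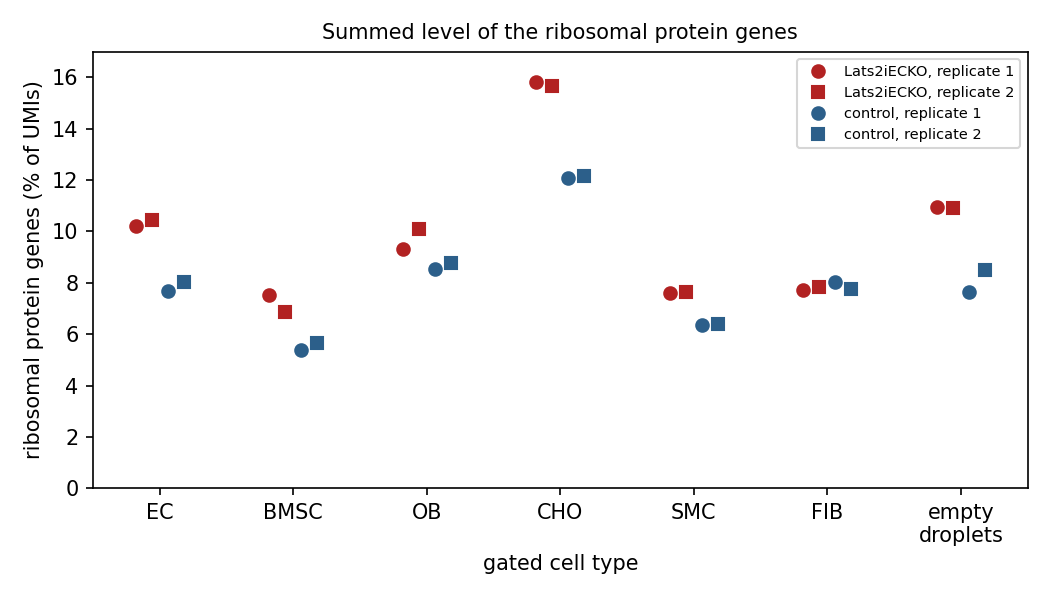
Share of all UMIs (%) taken by the 83 ribosomal protein genes in each gated cell type and in empty droplets, 1 point per library (red Lats2iECKO, blue control, circle replicate 1, square replicate 2). Both mutant libraries lie above both controls in EC, BMSC, OB, CHO, SMC and the empty droplets (11.0% and 10.9% against 7.64% and 8.49%), and the groups overlap in FIB.

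The same direction appeared per cell, where the median share was 9.15% and 9.46% in mutant EC against 6.78% and 7.12% in control EC, and 15.2% and 14.7% against 11.3% and 11.6% in CHO. In BMSC it was 5.44% and 5.39% against 4.74% and 4.88%, and in SMC 6.79% and 6.75% against 6.27% and 6.40%. It was narrow in OB (8.29% and 8.38% against 7.97% and 8.27%). In FIB, whose summed shares overlapped, the median per cell was above both controls in both mutants (7.57% and 7.47% against 7.41% and 7.29%). Other quantities moved along with genotype. Barcodes with few UMIs, which hold free RNA and no cell, had 11.0% and 10.9% of their UMIs from these genes in mutants and 7.64% and 8.49% in controls. Free RNA was estimated at 1.11% to 5.05% of the UMIs of a type and library, and with it subtracted the shares of EC were 10.2% and 10.4% against 7.67% and 8.03%. The summed markers of the type itself were lower in both mutant libraries in EC (7259 and 7350 against 8583 and 8347 CPM), BMSC, OB, CHO and SMC (12484 and 12686 against 21634 and 22571 CPM), and higher in FIB (6239 and 5756 against 5543 and 5034 CPM). Single markers went both ways. In EC, Pecam1 (1310 and 1315 against 1182 and 1095 CPM), Cdh5 and Esam were higher in both mutants, Erg overlapped and the rest were lower. Adipoq and Esm1 in BMSC, Col10a1 and Prg4 in CHO and Dmp1 in OB were also higher in both mutants. The median share of mitochondrial UMIs per cell was higher in both mutants in EC (5.52% and 5.57% against 4.68% and 4.61%), BMSC (4.14% and 4.18% against 3.18% and 3.34%), OB (5.11% and 4.57% against 4.10% and 4.10%) and FIB (4.77% and 4.75% against 3.78% and 4.32%), and lower in CHO (3.59% and 3.72% against 4.01% and 4.17%) and SMC (7.86% and 8.29% against 8.32% and 8.99%). Chondrocyte markers summed over the list overlapped between genotypes in EC and BMSC, while Col10a1 among them had 64.9 and 94.2 against 25.2 and 25.96 CPM in EC and 131 and 93.1 against 33.0 and 32.4 CPM in BMSC. In EC the BMSC list summed higher in both mutants (1604 and 1606 against 1376 and 1409 CPM). Most of that gap was Esm1 (259 and 245 against 31.9 and 24.9 CPM). Lepr and Gas6 were also higher in both mutants, Adipoq, Kitl and Ebf3 were lower, and Cxcl12 and Wif1 overlapped. The osteoblast list summed lower in EC (124 and 95.6 against 425 and 547 CPM). It was also lower in BMSC (433 and 461 against 860 and 935 CPM) and in CHO (1616 and 1457 against 2394 and 2371 CPM). The same held in SMC (140 and 130 against 451 and 452 CPM) and in FIB (133 and 155 against 319 and 395 CPM). The part of these quantities in the result was not tested.

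The makeup of a type also moved with genotype, so the share was read within parts of 4 types. A count of Col10a1, a gene of hypertrophic chondrocytes, was present in 1452 of 2140 and 1600 of 2329 CHO of mutants and in 512 of 1474 and 504 of 1524 of controls. Such a count was also present in EC, which should lack the gene (39.3% and 41.1% against 15.7% and 15.7%), and Col10a1 stood at 4305 and 4194 against 1668 and 1555 CPM in empty droplets, so the share of CHO is read above that background. Median depth was 11884 and 11775 against 13564 and 13807 UMIs in CHO and 6741 and 6542 against 5552 and 5294 UMIs in EC. In draws of 3000 UMIs per cell the share with a count was 45.1% and 44.8% against 19.2% and 18.5% in CHO and 17.9% and 19.2% against 7.94% and 8.23% in EC. At least 5 counts, a limit chosen after the data were seen, were held by 35.9% and 33.8% of CHO of mutants and 13.6% and 13.7% of controls, and by at most 5.37% of the cells of any other type and library, a value of mutant SMC. The ribosomal protein share was 16.02% and 15.9% against 11.5% and 10.9% in CHO with a Col10a1 count and 15.3% and 15.1% against 12.5% and 12.9% in those without. In CHO with at least 5 counts it was 16.9% and 17.003% against 9.81% and 9.45%. EC without a count of Stab2, a sinusoidal gene, had 10.5% and 10.7% against 7.83% and 7.96%, and EC with one had 9.13% and 9.76% against 7.52% and 8.12%. BMSC with an Adipoq count had 6.37% and 6.05% against 5.23% and 5.40%, and BMSC without had 11.1% and 9.42% against 6.39% and 7.09%. In each of these 6 parts of CHO, EC and BMSC both mutant libraries lay above both controls, with the widest gap in CHO with a Col10a1 count (4.78 percentage points) and the narrowest in BMSC with Adipoq (0.899). SMC were split by a count of Myh11, a gene of smooth muscle contraction, after the data were seen, since it was present in 227 of 387 and 248 of 428 SMC of mutants and in 270 of 273 and 266 of 278 of controls. SMC with a Myh11 count had 7.05% and 7.30% against 6.38% and 6.43%, a gap of 0.769 percentage points where that of all SMC was 1.23. SMC without one numbered only 3 and 12 in controls and are too few for a comparison of single genes.

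The 3 structural groups were also summed apart. In EC the small subunit genes took 4.54% and 4.66% of UMIs in mutants and 3.46% and 3.61% in controls, the large subunit genes 5.15% and 5.27% against 3.86% and 4.05%, and the 3 P-stalk genes 0.500% and 0.523% against 0.371% and 0.387%. These are 1.30, 1.32 and 1.35 times the control share. In CHO the corresponding ratios were 1.30, 1.31 and 1.20, so the P-stalk had the largest ratio of the 3 in EC and the smallest in CHO, a difference that was not tested.

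Gene by gene, 78 of 79 ribosomal protein genes tested were higher in mutant EC (edgeR quasi-likelihood test, Benjamini-Hochberg adjusted p of at most 0.05), where 29.9% of all 5860 genes tested passed in that direction, and none was lower, against 30.3%. Their median log2 fold change was 0.47, a fold of 1.39, with a median of all genes of 0.00, and 78 of the 79 had both mutant libraries above both controls, against 35.1% of all genes. No member reached 1 on the log2 scale, as 2.32% of all genes did upward. Rplp0, the scaffold of the P-stalk whose start region is given above, stood at 1555 and 1592 CPM in mutants and 1001 and 1102 CPM in controls (log2 fold change 0.65, SE 0.0611, adjusted p = 2.54e-06 from edgeR with Benjamini-Hochberg adjustment). Its partners Rplp1 (2304 and 2443 against 1769 and 1863 CPM) and Rplp2 (1139 and 1193 against 937 and 902 CPM) rose by log2 values of 0.45 and 0.41. In all 3 the lower mutant library lay above the higher control.

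Among the small subunit genes in EC, Rps10, which sits near the entry of the mRNA channel, rose from 848 and 926 CPM to 1267 and 1347 CPM (log2 fold change 0.63, SE 0.0618). The largest log2 fold change was that of Rps4l, an intronless relative of Rps4x on chromosome 6 (148256098 to 148257431, plus strand, 1 exon), with 86.5 and 91.7 CPM in mutants against 57.3 and 48.8 CPM in controls (log2 fold change 0.82, SE 0.0874, edgeR adjusted p = 7.26e-06). Its level is uncertain, since reads that match Rps4l and Rps4x alike were divided between them by the counting. Rpl29, a large subunit protein at the ribosome surface, had 688 and 683 CPM against 436 and 496 CPM (log2 fold change 0.62). The gene that did not pass was Rps29, a zinc-binding protein of the small subunit head, with 1833 and 2014 CPM in mutants and 1843 and 1817 CPM in controls. Its groups overlapped, and its log2 fold change was 0.14 (SE 0.0609, edgeR adjusted p = 0.0641).

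**Figure D2:**
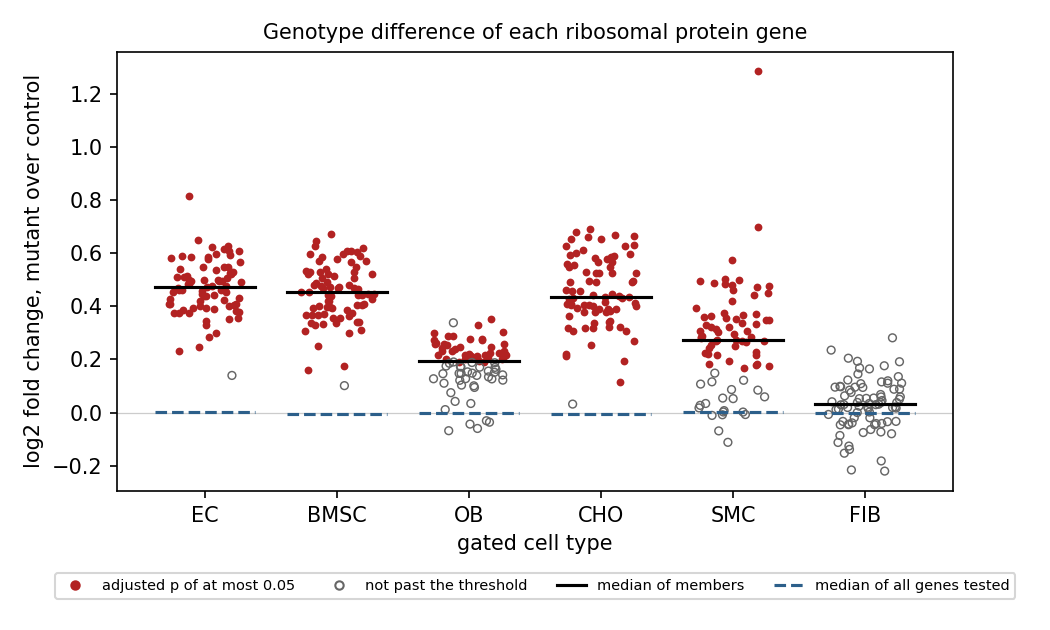
Log2 fold change of mutant over control for each ribosomal protein gene tested (1 point per gene) in the 6 gated cell types, filled red where the edgeR adjusted p is at most 0.05 and open where it is not. Black lines are the medians of these genes (0.47 in EC, 0.45 in BMSC, 0.19 in OB, 0.44 in CHO, 0.27 in SMC and 0.03 in FIB) and dashed lines those of all genes tested, and the point at 1.28 in SMC is Rps4l.

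In BMSC, 78 of 79 were likewise higher (edgeR, adjusted p of at most 0.05, against 22.7% of 5173 genes) and none lower (20.8%), with a median log2 fold change of 0.45. Both mutant libraries lay above both controls for 78, against 28.8% of all genes. Without a filter on genes none of 83 passed (against 0.938% of 29642 genes) and 76 had an unadjusted p under 0.05, and with a doubled gate margin the difference in summed share was 0.912 percentage points where it was 1.67. Rpl5, which with Rpl11 and the 5S ribosomal RNA forms a unit that can bind Mdm2, had 644 and 536 CPM in mutants and 392 and 385 CPM in controls (log2 fold change 0.67, SE 0.087, edgeR with Benjamini-Hochberg adjusted p = 5.85e-04). Rpl12, at the base of the P-stalk, had 865 and 717 against 515 and 547 CPM (log2 fold change 0.64). Mutant replicate 1 was above mutant replicate 2 for both, and both replicates were above the controls. Rpl13a, with 2 pyrimidine tracts in the window printed above, had 1011 and 885 against 636 and 652 CPM (0.63 on the log2 scale), and Rpl17, which lines the exit tunnel of the nascent chain, 1197 and 1041 against 738 and 789 CPM (0.62). As in EC the exception was Rps29, at 1258 and 1239 CPM against 1243 and 1198 CPM (log2 fold change 0.10, edgeR adjusted p = 0.151). The median log2 fold change was 0.28 in BMSC with an Adipoq count and 0.71 in those without.

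In CHO, 79 of 80 were higher (edgeR, adjusted p of at most 0.05, against 32.2% of 6733 genes) and none lower (also 32.2%), with a median log2 fold change of 0.44, and both mutant libraries lay above both controls for 78, against 30.5% of all genes. Rps23, a protein of the decoding center, had 2446 and 2440 CPM in mutants and 1598 and 1612 CPM in controls (log2 fold change 0.69, SE 0.0426, edgeR adjusted p = 1.98e-09). Rpl5 had 1485 and 1465 against 1003 and 950 CPM (0.68), and Rpl9 had 3003 and 2933 against 1953 and 2010 CPM (0.67). Rpl10, which joins the large subunit late in its assembly, had 2579 and 2499 against 1703 and 1692 CPM (0.67). The replicates of these 4 genes lay far closer to each other than to the other genotype. Rpl15 had 1255 and 1210 against 1190 and 1225 CPM. Its CPM overlapped although it passed the test (log2 fold change 0.11, SE 0.0453, edgeR adjusted p = 0.038), since the fit scales libraries by TMM factors and CPM are relative to library totals. Rps27l, a paralog of Rps27 that p53 induces, was the gene that did not pass, with 201 and 200 against 205 and 211 CPM (log2 fold change 0.03). On the CPM scale its mutant libraries lay below both controls, as for 52.9% of all genes.

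In SMC, 59 of 79 were higher (edgeR, adjusted p of at most 0.05, against 22.2% of 4999 genes), none lower (22.8%), with a median log2 fold change of 0.27. The libraries of 65 lay with mutants above controls, against 36.3% of all genes. Rps4l had 71.8 and 58.9 CPM in mutants against 27.1 and 26.6 CPM in controls (log2 fold change 1.28, SE 0.17, edgeR adjusted p = 4.87e-05) and was the single member past 1 on the log2 scale, which 4.9% of all genes passed upward. Rpl29 had 544 and 542 against 308 and 364 CPM (0.70), and Rps2, near the mRNA entry, had 1123 and 1169 against 720 and 826 CPM (0.58). Rps10 had 1031 and 1023 against 701 and 758 CPM (0.50). In contrast to these, the P-stalk was split: Rplp0 had 1131 and 1128 against 794 and 843 CPM (0.47, past the threshold), while Rplp2 had 1011 and 1044 against 1113 and 1055 CPM (log2 fold change −0.07, edgeR adjusted p = 0.417). Among SMC with a Myh11 count 30 of 79 members passed upward (against 12.4% of 4994 genes) and none downward (12.9%), with a median log2 fold change of 0.19, where the count over all SMC was 59, from more cells. Over all SMC the smooth muscle gene Myh11 had 1344 and 1401 against 3488 and 3745 CPM and the pericyte gene Kcnj8 120 and 129 against 44.0 and 50.7 CPM. The other genes of the SMC list went both ways. Abcc9 was higher in both mutants (296 and 276 against 248 and 241 CPM), and Higd1b overlapped (188 and 184 against 149 and 209 CPM). Rgs5 was lower (4145 and 4587 against 6068 and 5766 CPM), as were Notch3, Acta2 and Cnn1. Of 12 chondrocyte markers, none of them at 0, the sum in SMC was 551 and 714 against 357 and 389 CPM, with Col10a1 at 234 and 332 against 38.4 and 32.8 CPM. Of 8 leukocyte markers, Fcer1g had 142 and 131 against 10.7 and 19.2 CPM, and the other 7, Ptprc included, were each at most 3.15 CPM in any library. The part of these genes in the result was not tested.

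In OB, 41 of 80 were higher (edgeR, adjusted p of at most 0.05, against 7.43% of 6214 genes), none lower (4.1%), with a median log2 fold change of 0.19. Both mutant libraries lay above both controls for 68, against 25.5% of all genes. Rpl14, a protein of the large subunit, had 1228 and 1320 CPM against 994 and 1019 CPM (log2 fold change 0.35, SE 0.0619, edgeR adjusted p = 3.75e-04), and Rpl12 had 994 and 1057 against 826 and 820 CPM (0.33). Rpl17 had 1161 and 1164 against 929 and 970 CPM (0.30). For these 3 genes the mutants lay above the controls in both replicates. The count of 41 rests on the control libraries: 1 gene passed without control replicate 1 (against 4.03% of all genes) and 3 without control replicate 2 (against 4.41%), which is no more than the share of all genes. In those 2 fits the median log2 fold change was 0.18 and 0.22, where it was 0.19 with all libraries. DESeq2 called 19 (against 3.69%). Median depth in OB was 10957 and 13084 UMIs in mutants and 15837 and 16676 UMIs in controls. With cells thinned to 3000 UMIs, 10 members passed upward, as did 149 of 6190 genes. The summed difference was then 0.704 percentage points where it was 1.05. The part of depth in the result was not tested.

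In FIB no ribosomal protein gene passed the edgeR threshold in either direction, where 0.937% of 5867 genes passed upward and 0.477% downward. The unadjusted p was under 0.05 for 2 of 79 in edgeR, and DESeq2 called 0, with 0 at an unadjusted p under 0.05. The median log2 fold change was 0.03 with 54 of 79 above 0, and its sign turned with library totals (−0.016, 33 above 0) and with the doubled gate margin (−0.0081, 33 above 0). Members ran from −0.22 (Rps28) to 0.28 (Rps4l). Mutant libraries lay above controls for 13 genes, against 20.3% of all genes, and below for 27, against 29.9%. Rps29 had 1137 and 1224 CPM in mutants and 1462 and 1373 CPM in controls (log2 fold change −0.22, edgeR adjusted p = 0.278). FIB were the type with the fewest cells, and standard errors were larger there, as for Rplp1 (0.0914 in FIB and 0.0605 in EC). Whether FIB differ from the other types in response was not tested.

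**Figure D3:**
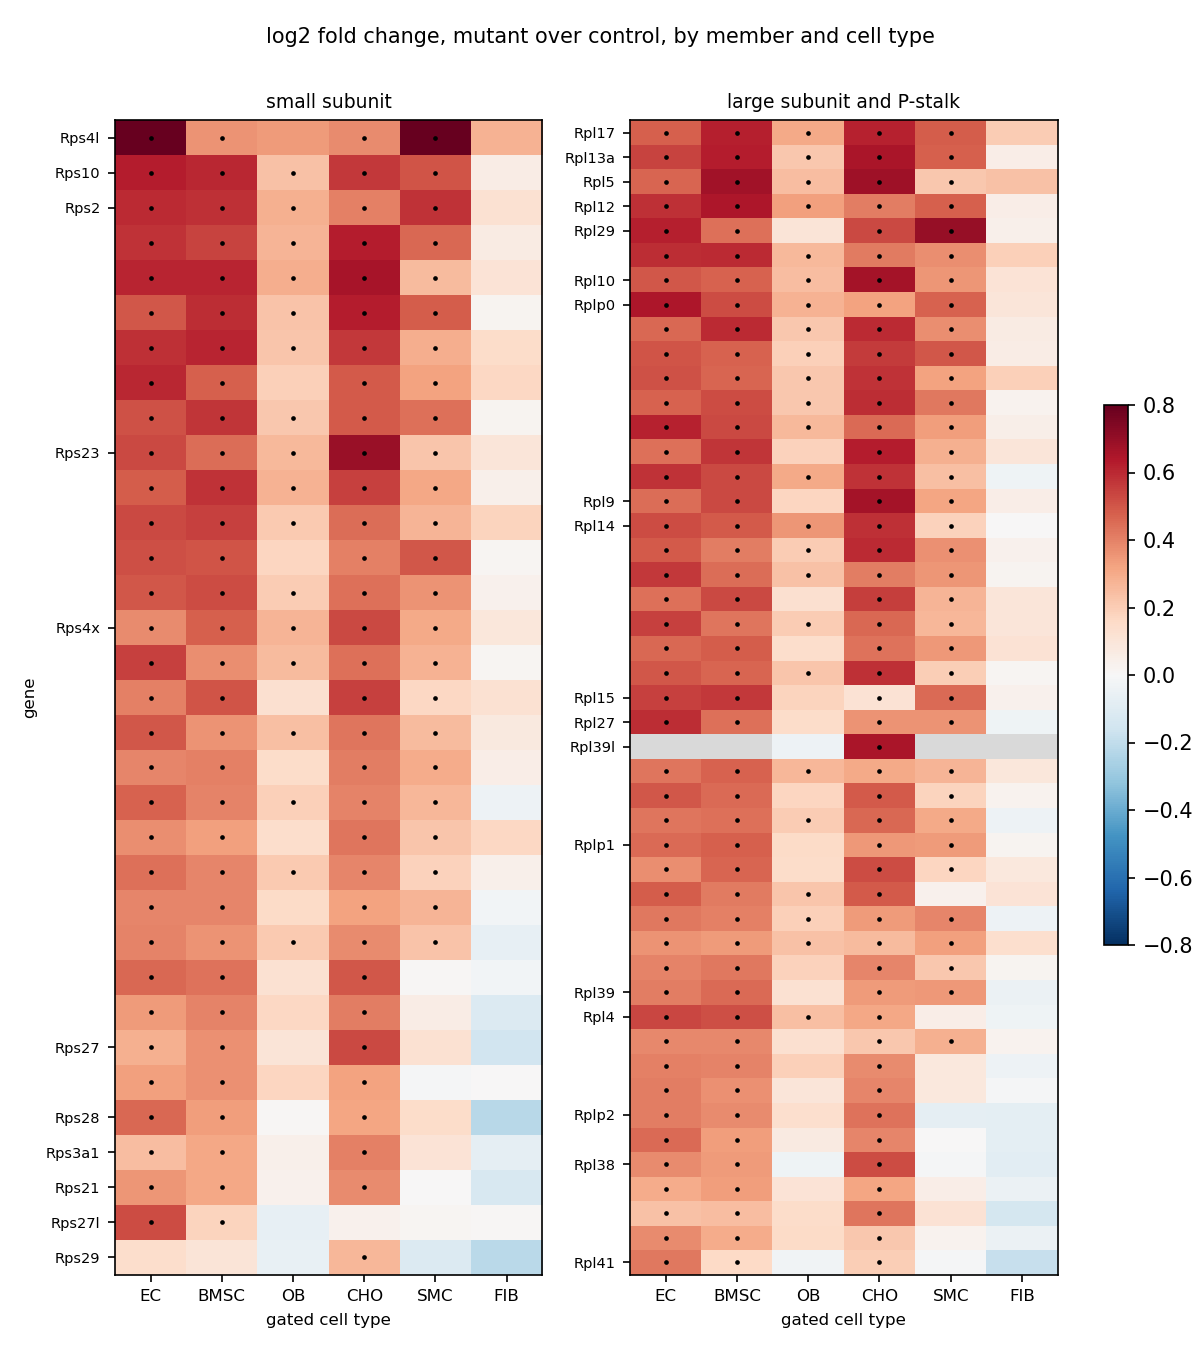
Log2 fold change of mutant over control (color, cut at 0.8 in size, so that Rps4l at 0.82 in EC and 1.28 in SMC are at the end of the scale) for 80 ribosomal protein genes in the 6 gated cell types, 1 row per gene, ordered within each panel by the mean over types and with names for part of the genes in the text. Dots mark an edgeR adjusted p of at most 0.05 and gray cells genes not tested, and 39 genes carry dots in the 5 types other than FIB.

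Read across types, 39 genes passed upward in 5 types, 22 in 4 and 16 in 3. Of all 3520 genes tested in every type, 4.01% passed upward in at least 5, 9.03% in at least 4 and 20.2% in at least 3. The count of 39 rests on OB, where 1 or 3 members passed without one of the controls. Of the remaining members, Rps27l passed in 2 (EC and BMSC), Rps29 in 1 (CHO) and Rpl39l in 1 of the 2 in which it could be tested. None passed downward in any type. Of the 83, 79 were tested in all 6 types and Rpl39l in OB and CHO, and Rpl32l, Rpl3l and Rpl6l did not pass the gene filter in any. Ordered by log2 fold change within each type, Rps29 stood among the 10 lowest in all 6, and Rpl41 and Rps21 among the 10 lowest in 5. At the other end Rpl17 stood among the 10 highest in 5 types. Rps21, and Rplp2 in SMC above, were picked after their values were seen. Across genes, Spearman's rho of the log2 fold change with the length of the canonical transcript was 0.26 in EC, 0.26 in BMSC, 0.29 in OB, 0.09 in CHO, 0.32 in SMC and 0.20 in FIB, as a description over 79 or 80 genes that share the same libraries.

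Because the deletion was aimed at EC, the genotype difference in EC was set against the mean difference in the other 5 types in 1 fit. It was larger in EC for 39 of 80 genes and smaller for 0 (edgeR interaction test, adjusted p of at most 0.05), where 13.7% of all 8361 genes were larger and 13.1% smaller. The unadjusted p was under 0.05 for 57, and the median difference was 0.20 on the log2 scale against 0.02 for all genes. This median was 0.23 without mutant replicate 1 and 0.16 without mutant replicate 2. It was 0.17 without control replicate 1 and 0.21 without control replicate 2. The count of 39 moved more. This count depends on single libraries, falling to 8 without mutant replicate 2 (against 7.98% of all genes), 4 without control replicate 1 (6.04%) and 8 without control replicate 2 (8.47%). In these 3 fits the members' count is near the share of all genes, and it was 35 without mutant replicate 1 (10.9%). Against the mean of BMSC and CHO alone, a comparison added after the data were seen, 4 genes of 80 were larger in EC, where 13.7% of all genes were, and the median difference was 0.03.

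The largest of these differences belonged to Rps27l (EC minus the other types 0.49 on the log2 scale, SE 0.0721, edgeR interaction test with Benjamini-Hochberg adjusted p = 5.5e-05). Rps27l stood at 244 and 234 CPM in mutant EC and 171 and 178 CPM in control EC. In BMSC it had 196 and 193 against 177 and 183 CPM, in OB 193 and 210 against 213 and 213 CPM, and in SMC 253 and 255 against 240 and 263 CPM. The mutants were thus clearly apart in EC, just above the controls in BMSC, below them in OB and overlapping in SMC. Rpl41, a very short peptide that bridges the subunits, had a difference of 0.40 (edgeR interaction, adjusted p = 2.43e-04). It had 1732 and 2047 CPM in mutant EC against 1434 and 1517 CPM in control EC, and log2 fold changes of 0.16 in BMSC, −0.03 in OB, 0.19 in CHO, −0.01 in SMC and −0.18 in FIB. Rps28, at the mRNA exit of the small subunit, had 1242 and 1317 against 976 and 974 CPM in EC and a difference of 0.35 (SE 0.0861, edgeR interaction, adjusted p = 0.00563). Rpl27 had 768 and 782 against 525 and 555 CPM in EC and a difference of 0.34 (SE 0.0717, edgeR interaction, adjusted p = 0.00161). Of these 4 genes, Rps27l, Rpl41 and Rpl27 hold CCGGAA near the start, and Rps27l and Rpl27 hold a pyrimidine tract in the windows printed above. Over the 61 members in the promoter table the shares were 55.7% and 68.9%. A link of either motif with the difference in EC was not tested.

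The cell types differed in the level of these genes in controls alone, where each type was compared with the mean of the other 5 with the library as a block. Of 80 genes, 16 were higher in CHO by at least 1 on the log2 scale (edgeR, adjusted p of at most 0.05, against 13.2% of 8559 genes) and 14 in OB (against 12.6%), while 21 were lower in BMSC (against 11%). By that rule Rpl39l alone was higher in BMSC (12.3% of all genes) and lower in EC (16.8%) and FIB (9.97%), and no member differed in SMC (11.4% higher and 14.5% lower). At any size, 78 were higher in CHO (39.9% of all genes), 80 in OB (37.8%), 78 lower in BMSC (40.9%), 75 lower in SMC (30.5%) and 69 lower in EC (41.1%). In FIB 11 were higher (26.9%) and 7 lower (25.1%). These counts moved with the setting: with library totals 29 were higher (53.6% of all genes) and 19 lower (28%) in EC and 41 higher (15.6%) and 11 lower (73.1%) in OB, and in the mutant libraries 11 were higher (38.6%) and 28 lower (35.6%) in EC and 2 higher (25.3%) and 71 lower (25.6%) in FIB. The median log2 difference of the members was 0.82 in CHO, 0.75 in OB, 0.02 in FIB, −0.27 in EC, −0.44 in SMC and −0.93 in BMSC. With library totals in place of TMM it was 0.71, 0.11, 0.05, −0.33 and −0.60 in CHO, OB, EC, SMC and BMSC, where the median of all genes moved by −0.11, −0.65, 0.31, 0.12 and 0.33, so the sign in EC depends on the scaling. As shares of UMIs in controls the order was CHO, OB, then FIB and EC, which overlapped, then SMC and BMSC.

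Of the 8 members with the highest levels over all control cells, Rplp1 stood first (2874 and 2935 CPM), and others were Rpl13 (2072 and 2187), Rpl41 (2073 and 2084), Rplp0 (1819 and 1937), Rps12 (1855 and 1889), Rps24 (1815 and 1886) and Rps29 (1886 and 1791), in CPM of UMIs counted mostly at 3′ ends and not divided by length. Rplp1 and Rplp0 were also among those most raised in CHO over the other types, by 1.36 and 1.34 on the log2 scale. In OB the leading gene after Rpl39l was Rpl38, at 1624 and 1545 CPM in control OB and 645 and 625 CPM in control BMSC. Its log2 difference from the mean of the other types was 1.51 with TMM, and values in OB depend on that scaling. With library totals the median of all genes in OB moved by −0.65. There 1 member was higher in OB by at least 1 on the log2 scale, as were 594 of 8559 genes. Mutant OB had 1462 and 1606 CPM of Rpl38, which overlapped the controls (edgeR adjusted p = 0.793). In BMSC, Rpl4, which lines the exit tunnel, had 232 and 244 CPM against 434 and 435 CPM in control EC and had a log2 difference of −1.26 from the mean of the other types.

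Of the members, 6 are named as relatives of another member by a closing l, and Rpl39l had the widest range over cell types. It had 1.38 and 2.98 CPM in mutant EC and 1.85 and 2.24 CPM in control EC, and in FIB 10.9 and 6.02 against 3.93 and 4.80 CPM. In BMSC it had 37.6 and 41.7 against 37.6 and 34.8 CPM, in OB 32.3 and 31.2 against 33.8 and 32.0 CPM, and in SMC 25.1 and 26.4 against 28.9 and 20.4 CPM. The gene was thus near 0 in EC and low in FIB in both genotypes, and present in the other 4 types. In controls the log2 difference from the mean of the other types was 2.18 (SE 0.0902) in OB and −3.58 (SE 0.243) in EC. These values are on the TMM scale, while in CPM control BMSC (37.6 and 34.8) lay above control OB (33.8 and 32.0). By genotype it rose in CHO, with 34.4 and 36.2 against 23.5 and 24.1 CPM (log2 fold change 0.65, SE 0.0614, edgeR adjusted p = 2.34e-07). Rpl39, the X-linked gene it is named after, is a short protein of the exit tunnel and was at far higher CPM in each type, with 1308 and 1381 against 1064 and 1061 CPM in EC and 2722 and 2761 against 2333 and 2268 CPM in CHO.

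**Figure D4:**
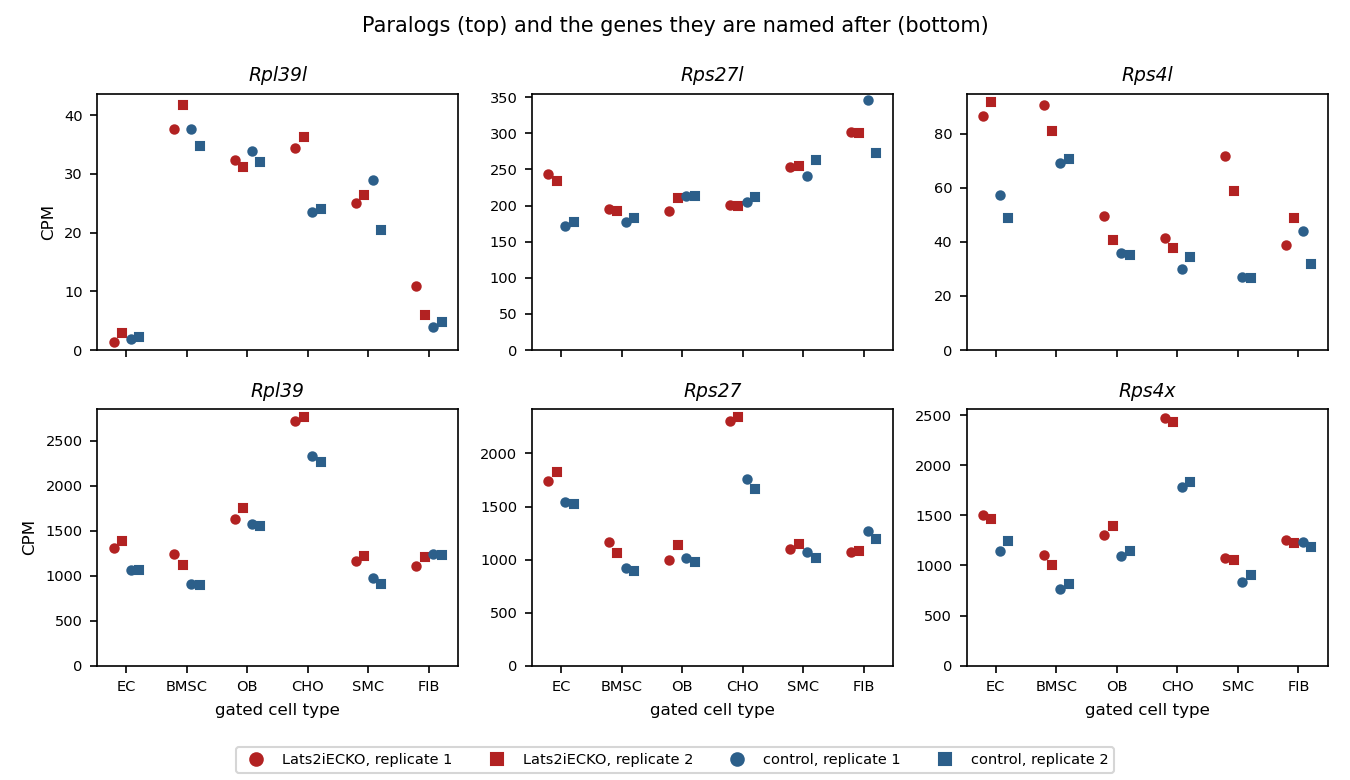
CPM of 3 paralogs (top) and of the genes they are named after (bottom) in the 6 gated cell types, 1 point per library (red Lats2iECKO, blue control), with a separate vertical axis from 0 for each gene. Rpl39l is near 0 in EC, the mutants stand apart upward for Rps27l in EC, and for Rps4l they stand apart most in EC and SMC.

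Rps27l can be set beside Rps27. Rps27 rose in CHO, with 2308 and 2347 against 1758 and 1663 CPM, whereas Rps27l in CHO had 201 and 200 against 205 and 211 CPM. In EC both rose, Rps27 by 0.28 and Rps27l by 0.52 on the log2 scale. Whether the 2 genes differ in response was not tested. Rps4l passed in EC, BMSC (90.8 and 81.1 against 69.3 and 70.5 CPM), CHO (log2 fold change 0.38) and SMC, and not in OB (edgeR adjusted p = 0.0851) or FIB (edgeR adjusted p = 0.565). Rps4x passed in those 4 types and in OB, for example with 2478 and 2432 against 1786 and 1830 CPM in CHO. Of the members in no fit, Rpl3l, the heart and skeletal muscle relative of Rpl3, was at most 2.67 CPM in any type and library. The annotated pseudogenes Rpl32l and Rpl6l were at most 1.86 CPM and between 5.36 and 22.1 CPM.

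Ribosomal protein genes have many processed copies, and the deposited files count 322 of them as features of their own. Of the copies tested, 31 of 36 rose and none fell in CHO, 11 of 22 rose and 2 fell in EC, 6 of 12 rose and 2 fell in BMSC, 4 of 30 rose and none fell in OB, 4 of 15 rose and 5 fell in SMC and 1 of 16 rose in FIB (edgeR, adjusted p of at most 0.05). In EC, OB and CHO 4 copies of Rpl35a had the same values in every library, as had 2 copies of Rps19 in CHO. Reads divided evenly among such copies thus enter the counts of copies as the same result more than once. With each such set taken once, 28 of 32 rose in CHO, 11 of 19 in EC and 4 of 27 in OB. The shares of all genes that rose and fell, given above for each type, were 32.2% and 32.2% in CHO, 29.9% and 30.3% in EC, 22.7% and 20.8% in BMSC, 7.43% and 4.1% in OB, 22.2% and 22.8% in SMC and 0.937% and 0.477% in FIB, and the counts of copies in SMC lie near them. The same shares stand behind the lists of further genes that follow. The copy with the widest gap was Rps3a3, a transcribed processed pseudogene of 1 exon on chromosome 13 of GRCm39 (108807137 to 108807931, plus strand). It had 604 and 623 CPM in mutant CHO and 12.2 and 12.1 CPM in control CHO (log2 fold change 5.74, SE 0.0619, edgeR adjusted p = 5.9e-18). In EC it had 212 and 225 against 3.86 and 9.29 CPM (5.12), in BMSC 205 and 182 against 4.18 and 4.67 CPM (5.51), and in OB 238 and 182 against 4.81 and 4.83 CPM (5.44). SMC and FIB gave 288 and 231 against 2.52 and 15.5 CPM and 102 and 128 against 5.50 and 15.1 CPM. The gap between genotypes was present in all 6 types, FIB included, where no member passed.

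Rps3a1, the coding gene on chromosome 3 (86045244 to 86050009, minus strand), had 1362 and 1331 against 1134 and 1243 CPM in EC, a log2 fold change of 0.25 that was among the smallest of the members there. Summed over Rps3a1, Rps3a2 and Rps3a3 the values were 1580 and 1562 against 1144 and 1257 CPM, and the log2 fold change was 0.46. In CHO the sum had 3905 and 3785 against 2546 and 2657 CPM, and the log2 fold change went from 0.40 to 0.65. In FIB it was 0.03. Which of these features a read came from cannot be told from the deposited counts, so the values of Rps3a1 and Rps3a3 are both uncertain.

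**Figure D5:**
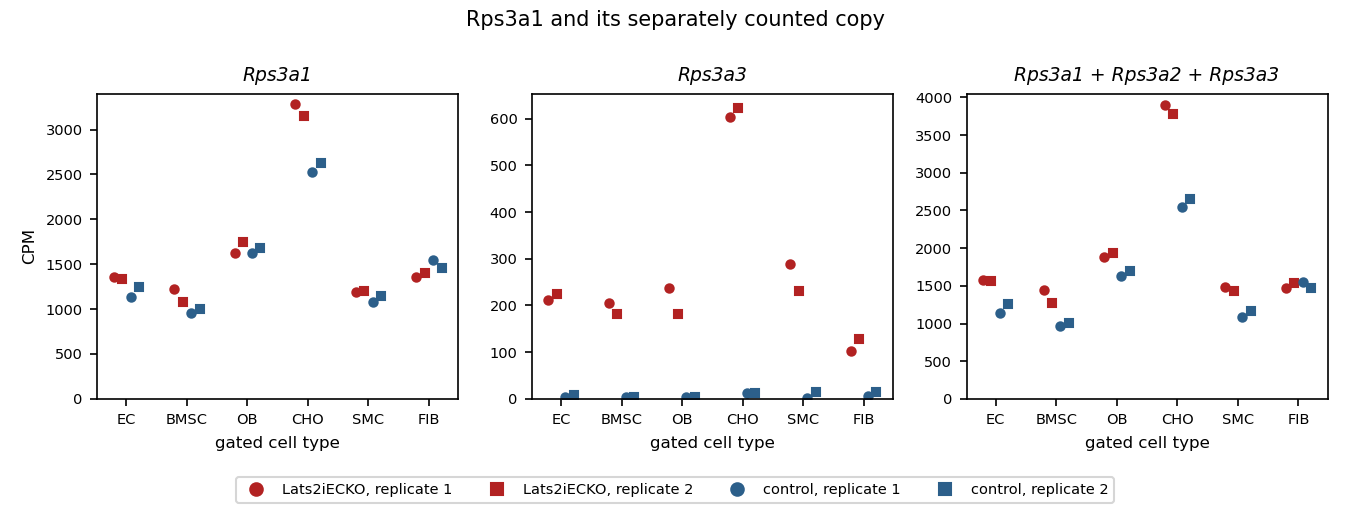
CPM of Rps3a1, of its separately counted copy Rps3a3 and of Rps3a1, Rps3a2 and Rps3a3 summed, in the 6 gated cell types, 1 point per library (red Lats2iECKO, blue control), with a separate vertical axis from 0 in each panel. Rps3a3 lies at 102 to 623 CPM in mutant libraries and at 2.52 to 15.5 CPM in controls.

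Other copies followed a lesser gap or the reverse. Rpl30-ps9 had 77.2 and 73.1 against 28.4 and 35.6 CPM in EC (log2 fold change 1.30) and rose by 1.78 on the log2 scale in CHO, and Rps10-ps2 rose by 0.70 in EC and 1.07 in CHO. Rpl15-ps3 fell in EC, from 37.6 and 40.4 CPM to 27.4 and 25.7 CPM (−0.49), while Rpl15 itself rose there by 0.55 and, summed with its copies, by 0.46. With each member summed with its copies, 78 genes passed upward in EC (29.9% of all genes), 78 in BMSC (22.4%), 43 in OB (7.44%), 79 in CHO (32.1%), 59 in SMC (22.2%) and 0 in FIB (0.82%).

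Genes that work with the ribosome were read from lists chosen by function. Of 6 further ribosomal genes that the symbol rule leaves out, 5 rose in EC, 5 in BMSC, 4 in OB, 5 in CHO, 6 in SMC and 0 in FIB, where 29.9% of all genes rose in EC and 32.2% in CHO. Rpl36al and Fau, the gene of Rps30 fused to a ubiquitin-like protein, rose in EC by 0.60 and 0.53 on the log2 scale. Of 18 translation genes known for a TOP start, 17 of 18 tested rose in EC, 15 of 17 in BMSC, 15 of 18 in CHO, 7 of 17 in SMC, 5 of 18 in OB and 0 of 18 in FIB, and none fell, where 22.7% of all genes rose in BMSC, 22.2% in SMC and 7.43% in OB. The elongation factor Eef1a1 had 3254 and 3249 against 2244 and 2378 CPM in EC (0.56), the RNA-binding protein Hnrnpa1 rose by 0.63 and the nucleolar chaperone Npm1 by 0.61. Medians over this list were 0.40 in EC, 0.34 in BMSC and 0.35 in CHO, beside medians near 0 for all genes.

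The lists for ribosome assembly and for mitochondrial ribosomes held genes that fell in CHO as well as genes that rose. Of the assembly genes tested, 8 of 10 rose in EC and none fell, against 29.9% and 30.3% of all genes, whereas in CHO 3 of 17 rose and 7 fell, against 32.2% each way. Nhp2, of the H/ACA particles that modify ribosomal RNA, had 52.3 and 48.3 against 27.7 and 30.4 CPM in EC (log2 fold change 0.85, edgeR adjusted p = 2.0e-05) and fell by 0.28 on the log2 scale in CHO (edgeR adjusted p = 5.89e-04). Gnl3 and Nop58, both nucleolar, rose in EC by 0.55 and 0.42. Of the assembly genes tested, 2 of 5 rose in BMSC, 1 of 15 in OB, 1 of 8 in SMC, where 1 fell, and 0 of 14 in FIB. Mitochondrial ribosomal protein genes, which serve a separate ribosome, rose for 38 of 55 in EC, 7 of 44 in BMSC, 1 of 63 in OB, 12 of 59 in CHO, 2 of 48 in SMC and 0 of 56 in FIB, and in CHO 14 fell. The share that rose was above that of all genes in EC (29.9%) and below it in BMSC (22.7%), OB (7.43%), CHO (32.2%, with 32.2% falling) and SMC (22.2%). Their median log2 fold change was 0.31 in EC and −0.0044 in CHO. Mrpl33 had 148 and 148 against 89.7 and 93.7 CPM in EC (0.76), and Mrpl54 and Mrps6 rose by 0.70 and 0.57.

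Of 11 genes of growth control, 7 were tested in EC, of which 2 rose and 2 fell, close to the 29.9% and 30.3% of all genes. Eif4ebp1, an inhibitor of the cap-binding protein Eif4e and a substrate of mTORC1, had 88.8 and 81.8 CPM in mutant EC and 37.8 and 40.6 CPM in control EC (log2 fold change 1.19, SE 0.0877, edgeR adjusted p = 2.81e-07), and in CHO 70.6 and 65.6 against 20.4 and 20.4 CPM (1.82). In both types the mutants lay far above the controls. Eif4e rose in EC by 0.31, and Rptor, a subunit of mTORC1, fell from 103 and 94.2 CPM to 66.3 and 63.9 CPM (−0.53, edgeR adjusted p = 6.78e-05). The counts of this list were 2 up and 2 down of 7 in BMSC, 0 and 0 of 7 in OB, 3 and 1 of 8 in CHO, 1 and 2 of 7 in SMC and 0 and 0 of 7 in FIB.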

How the data were processed

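Reads were trimmed with cutadapt 3.5 and aligned with STARsolo 2.7.10a to GRCm39 with GENCODE gene models to which the transgenes had been added, per the study's methods. The authors deposited unfiltered, unnormalized expected counts per gene and barcode over exons and introns, in which reads of several genes are divided by expectation maximization, and 9.09% to 9.95% of entries are not whole. Copies of 1 gene are therefore estimates of a split.

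Barcodes were kept with at least 1000 UMIs and 800 genes, a complexity (log genes over log UMIs) of 0.8 or more, and no more than 15% of UMIs from mitochondrial and 5% from hemoglobin genes. A barcode went to the type with the highest marker score where at least 3 markers were detected and the score led the next by 0.1. Doublets were handled only through that lead, and no caller was run. Expected counts were summed per library and type, rounded, and tested with edgeR 4.0.16 in R 4.3.3 (quasi-likelihood, TMM, Benjamini-Hochberg over all genes tested in the type), over genes that passed filterByExpr with a count in at least 20% of cells of either genotype. The test was also run on simulated EC counts over 5860 genes with known changes. No outcome of that run is reported here, so it does not show the error rate of the test. DESeq2 1.42.0 was an alternative. Levels are CPM of a type's UMIs, with library totals from 69636600 to 85899079, and sampling error falls with the counts behind a value. Free RNA was estimated from barcodes with 10 to 100 UMIs.

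Replicate libraries differed by more than counting noise (chi-square per degree of freedom 5.14 in mutants and 6.14 in controls). The genes and lists were chosen with earlier results of these data known. Named genes are up to 4 largest rises and falls per type, up to 2 per type against other types, the 8 highest, the paralogs and their namesakes, copies called, up to 4 in the EC comparison, and 3 per context list. Positions are from GENCODE M39 on GRCm39, and start regions from a RefSeq table on GRCm38.p6. Protein sequences were not used here, and some genes that these rules pick are not reported here.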

Additional observations from a re-analysis of the deposited data

Results flagged for a closer look

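Among the ribosomal protein genes, 39 of 80 had a larger genotype difference in EC than the mean of the other 5 types, which was tested directly (edgeR interaction test, Benjamini-Hochberg adjusted p of at most 0.05), against 13.7% of 8361 genes. The count was 8 without mutant replicate 2 (7.98% of all genes), 4 without control replicate 1 (6.04%) and 8 without control replicate 2 (8.47%), near the shares of all genes. The median difference of the members in these 3 fits was 0.16, 0.17 and 0.21 on the log2 scale, where it was 0.20 with all libraries. With all libraries the largest differences were those of Rps27l with 0.49, Rpl41 with 0.40, Rps28 with 0.35 and Rpl27 with 0.34 on the log2 scale. In the comparison with BMSC and CHO alone 4 genes were larger in EC, where 13.7% of all genes were.

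Empty droplets, which served only to estimate free RNA, drew 11.0% and 10.9% of their UMIs from ribosomal protein genes in the mutant libraries, above the 7.64% and 8.49% of the controls. The copy Rps3a3, which is not a member, stood at 604 and 623 CPM in mutant CHO, above the 12.2 and 12.1 CPM of control CHO.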

How the results depend on the processing

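With other settings no summed difference and no count of genes by genotype changed direction, whereas counts between types did (below), and the sets of genes behind the counts were not compared. Of the single genes named, recomputed 1114 times, 1053 kept direction and side of the threshold, 58 were no longer past it, 3 were newly past it and 0 reversed. The number of genes higher in mutants moved by more than 1.5 times in BMSC without a filter on genes (0, with 76 of 83 at an unadjusted p under 0.05 over 29642 genes, of which 0.938% passed). It also did in OB with DESeq2 (19, against 3.69% of all genes), library totals (18, 6.05%), no filter on genes (8, 2.46%), cells thinned to 3000 UMIs (10, 2.41%) and a doubled gate margin (15, 4.88%), and in SMC with a Myh11 count (30, 12.4%) and without one (7, 1.15%). Controls held too few SMC without a Myh11 count for a comparison of single genes, as given above. Their control shares were 2.96% and 5.86%, so the summed difference of that part, given below, is also uncertain. Leaving out 1 library gave 77 to 79 in EC (24.2% to 29.5% of all genes), 72 to 77 in BMSC (13.3% to 21.8%), 1 to 58 in OB (4.03% to 8%), 77 to 79 in CHO (28.5% to 30.1%), 45 to 53 in SMC (18.4% to 20.4%) and 0 in FIB (0.921% to 1.52%). The summed difference, in percentage points, was 2.46 in EC (2.22 thinned, 2.72 without Stab2, 1.62 with it), 1.67 in BMSC (0.912 with the doubled margin, 0.899 with Adipoq, 3.52 without it), 3.62 in CHO (4.16 thinned, 3.73 with copies, 3.34 with the doubled margin, 4.78 with Col10a1, 7.35 with at least 5 counts of it, 2.48 without it), 1.23 in SMC (1.56 with at least 2000 UMIs and at most 10% mitochondrial UMIs, 0.979 thinned, 1.26 with copies, 1.13 with the doubled margin, 0.769 with Myh11, 3.74 without it), 1.05 in OB (0.704 thinned, 0.752 with the doubled margin, 1.36 with at least 2000 UMIs) and −0.13 in FIB (−0.51 with the doubled margin).

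Between types, the balance of higher and lower at any size turned in EC from 1 and 69 to 29 and 19 with library totals, where 53.6% of all genes were higher and 28% lower, and in FIB from 11 and 7 to 2 and 71 in mutant libraries (25.3% and 25.6%). Past 1 on the log2 scale, the count of genes lower in EC was 0 when thinned (15.6% of all genes). Those lower in BMSC were 0 with library totals (7.65%), 35 with the doubled margin (10.7%), 1 in mutant libraries (8.2%) and 33 with free RNA subtracted (11.1%). Those higher in OB were 1 with totals (6.94%), 8 thinned (12.3%) and 6 in mutant libraries (11%), and those higher in CHO were 7 with totals (11.8%) and 44 in mutant libraries (13.2%). In SMC, 1 was higher with totals (12.9%), thinned (11.9%) or with free RNA subtracted (11.7%), and 1 lower thinned or with free RNA subtracted (13.5% each). The count of 39 in the EC comparison was 25 with totals (11.4%), 15 thinned (5.62%), 60 with the doubled margin (12.6%), 19 with free RNA subtracted (13.2%), 4 against BMSC and CHO alone (13.7%) and 4 to 35 with 1 library left out (6.04% to 10.9%). The causes were not tested.

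With the replicate number as a block, 79 genes were higher in EC (31.1% of all genes), 76 in BMSC (20.3%), 44 in OB (8.16%), 78 in CHO (32.2%), 53 in SMC (20.9%) and 0 in FIB (2.61%). Across genes, the correlation between the deviations of libraries of the same number ran from −0.118 in BMSC to 0.144 in EC. For the ribosomal protein genes it ran from −0.594 in CHO to −0.0916 in OB. With so few libraries per genotype, these correlations cannot tell whether libraries of the same number were paired. Controls were littermates, and the sources used here do not state whether the numbers match libraries.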
